A study of Mus musculus with 12 samples.

Results

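Collagens, laminins and integrins are the chains of the extracellular matrix and the receptors that hold cells to it. The genes described here are every gene of both deposited tables whose symbol is that of a numbered collagen chain, of an alpha, beta or gamma laminin chain, or of an alpha or beta integrin chain. The rule used the names and no measured value, and it found 81 of 22911 genes, of which 44 were collagens, 11 laminins and 26 integrins. They were measured by RNA-Seq in epiblast-like cells (EpiLCs), which resemble the epiblast of the mouse embryo just after implantation.

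Laminins are secreted as trimers of one alpha, one beta and one gamma chain, and together with collagen IV they form the sheet known as the basement membrane. Lama1, Lamb1 and Lamc1 make up the main laminin of the early embryo, which the epiblast and the endoderm next to it both contact. Fibrillar collagens instead form the tension-bearing fibres of connective tissue, and integrins are pairs of an alpha and a beta chain in the cell membrane that bind laminin, collagen or the RGD motif of fibronectin and vitronectin.

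The study asked what the loss of the X-linked histone demethylase gene *Kdm5c* does in each sex. Embryonic stem cells (ESCs) were derived from single blastocysts on feeder fibroblasts, kept in 2i medium, and turned into EpiLCs for 48 h with 10 ng/ml FGF2 and 20 ng/ml Activin A on dishes coated with 15 µg/ml fibronectin. Each genotype had 3 libraries, one for each of 3 ESC lines per the methods. The female controls, called fWT as in the labels, carry 2 floxed alleles (*Kdm5c* fl/fl) and the male controls, mWT, carry 1 (*Kdm5c* fl Y), so the floxed allele is common to all controls. The female (fKO, *Kdm5c* Δ/Δ) and male (mKO, *Kdm5c* ΔY) mutants lack the exons that encode the catalytic domain. The alleles are those the methods give, while the labels give the strain as C57BL/6J and the genotypes by Smcx, an older symbol of the gene. Total RNA was depleted of ribosomal RNA before sequencing.

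The deposited tables give a mean normalized count per gene and genotype, that is, reads divided by a size factor for each library and averaged over 3 libraries. The reads of single libraries were recovered from these means, and all 81 genes were recovered in all 12 libraries. The libraries carry no names and are called A, B and C within a genotype, by falling size factor. Between 6038566 and 12218216 reads were recovered per library. For *Col4a1* alone, the fKO and mWT means each had 2 solutions, and the one in which the libraries lay within 1.11-fold of each other was taken. Among genes with at least 2000 reads in a pair of libraries, female libraries of one genotype differed by a median of 0.058 to 0.079 on the log2 scale, and so did mWT A from mWT C (0.055) and mKO B from mKO C (0.060). Library B of mWT (0.18 and 0.20) and library A of mKO (0.23 and 0.21) stood apart from the other 2 of their genotype. Libraries A and C of mWT also held 1878 and 1692 of the 3236 genes without a read in any female library, against 145 to 223 in the other male libraries, so low values there are given with reserve. *Kdm5c* itself had 2359.7 ± 60.7 normalized counts (SD, n = 3) in fWT and 1453 ± 49.7 in fKO, and 2226 ± 133 in mWT and 1938 ± 39.7 in mKO, which checks the labels only in part because reads outside the deleted exons are counted. The EpiLC markers *Pou5f1* (group means of 2855 to 3667 normalized counts), *Otx2* (408 to 1363) and *Fgf5* (168 to 336) were present in every genotype, each at its lowest in mKO. Of the full list of 9 EpiLC markers, 5 were higher and 3 lower in fKO, and 0 higher and 4 lower in mKO (adjusted p under 0.05 in limma). Of 10 naive ESC markers, 8 were higher and 1 lower in fKO, and 5 higher and 0 lower in mKO.

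In females the embryonic basement membrane chains *Lama1*, *Lamb1*, *Lamc1*, *Col4a1* and *Col4a2* rose and most of the changed fibrillar collagens fell. Of 80 genes with a read in the female libraries, 19 were higher and 28 lower in fKO than in fWT at an adjusted p under 0.05 in limma, or 23.8% and 35%. Over all genes tested the shares were 25.5% and 24.7%, so the higher share lay near the background. The collagens gave 9 higher and 17 lower of 44, the laminins 5 and 3 of 11, and the integrins 5 and 8 of the 25 tested. The median log2 fold change was -0.31 for collagens, 0.57 for laminins and 0.018 for integrins, beside 0.0043 for all genes. In bulk RNA, fewer cells of a type and less RNA per cell cannot be told apart.

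In males 10 collagens rose, fibrillar types among them, and which genes passed, collagens included, depended in part on the libraries included. Of all 81 genes, 14 were higher and 2 lower in mKO than in mWT (17.3% and 2.47%), beside 4.19% and 3.63% of all genes tested. The higher genes were 10 collagens and 4 integrins, and the lower ones were *Lama4* and *Itgam*. The median log2 fold change was 0.31 for collagens, -0.48 for laminins and 0.40 for integrins. The median of all genes was -0.17, and -0.00027 where genes averaging under 10 normalized counts were left out. Of 6 trophoblast markers, 5 were also higher in mKO, with summed levels of 1938 to 3283 in mWT and 5809 to 10639 in mKO, and their part in the male results was not tested. Without mWT B and mKO A, the libraries that stood apart, 33 genes were higher and 23 lower, beside 17.7% and 25.4% of all genes. Only 2 libraries of each male genotype were left, and those taken out were chosen for their distance in these same data. This choice lowers the spread within groups, so adjusted p-values without both libraries are given with reserve here and below. In that fit 17 collagens were higher and 12 lower, 1 and 5 of the 8 basement membrane collagens, 5 and 6 laminins, and 11 and 5 integrins. The count of 16 ranged from 5 without mWT C to 38 without mKO A when single libraries were left out, and was 8 without mWT A or mKO C. Of the 10 collagens, *Col1a1*, *Col1a2*, *Col4a5*, *Col5a1* and *Col11a1* passed in 6 of 6 such fits, and the others in 2 to 5.

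The effect of the mutation differed between the sexes for many of these genes. The interaction of sex and genotype, tested in limma over all 12 libraries, was positive (a larger log2 change in males) for 27 genes and negative for 10, beside 10.6% and 10.8% of all genes. These are 33.3% and 12.3% of the 81, so the positive share exceeded the background and the negative share was close to it. Without the libraries that stood apart, 33 were positive and 23 negative, beside 17.8% and 27.9%. Of 80 genes tested in both sexes, 12 fell in fKO and rose in mKO, which 1.36% of all genes did. They were *Col1a1*, *Col1a2*, *Col4a5*, *Col5a1*, *Col7a1*, *Col8a1*, *Col9a2*, *Col11a1*, *Col16a1*, *Itga11*, *Itgb3* and *Itgb5*. Not all male calls held without a single library. Of 6 such male fits, *Col8a1* passed in 5, *Itga11* in 4, *Col7a1*, *Col9a2*, *Col16a1* and *Itgb5* in 2, and *Itgb3* in 1. In females *Itgb3* passed in 3 of 6. *Lama4* alone rose in fKO and fell in mKO, a pattern that 0.883% of all genes had, and no member changed the same way in both sexes by both tests.

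**Figure D1:**
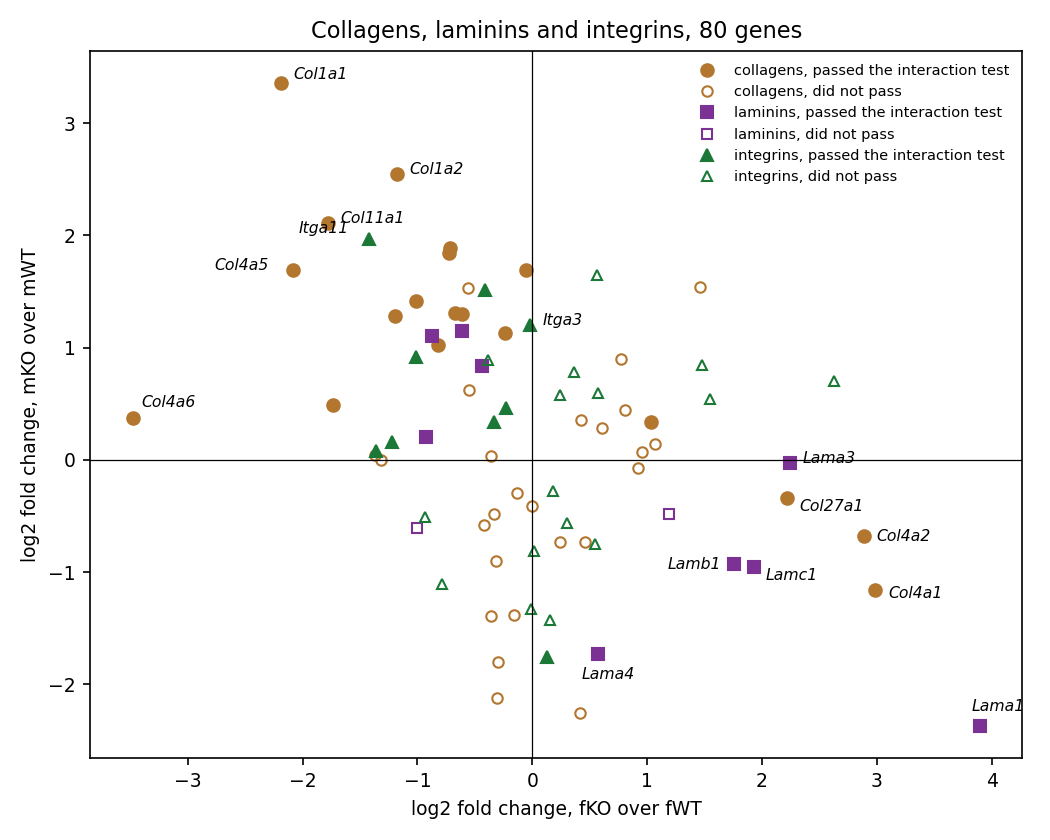
Log2 fold change of mutant over control in females (horizontal axis) and males (vertical axis) for the 80 genes tested in both sexes, on the log2(normalized count + 1) scale. Circles are collagens, squares laminins and triangles integrins, and filled symbols passed the interaction test at an adjusted p under 0.05. *Lama1* lies at 3.90 and -2.37 at the lower right, and *Col1a1* at -2.19 and 3.36 at the upper left.

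*Lama1*, the alpha chain of the early embryonic laminin, had the largest log2 fold change of all 81 genes in females (chr17:68046605-68171985, + strand, mm9). Its normalized counts were 874, 907 and 849 in the fWT libraries and 13294, 12625 and 13295 in the fKO libraries. All fKO libraries lay far above all fWT libraries. The rise was 14.9-fold between the means, with a log2 fold change of 3.90 ± 0.053 (SE) and an adjusted p of 2.23e-19 in limma. In males the order of the genotypes was opposite, with 8347, 7482 and 8252 in mWT and 373, 3245 and 3088 in mKO. The male groups did not overlap, but mKO A was far below mKO B and C, and the log2 fold change of -2.37 ± 0.67 (SE) did not pass (adjusted p = 0.0626). Without mWT B and mKO A, with 2 libraries left in each group, it was -1.39 (adjusted p = 1.19e-05). The interaction was -6.26 ± 0.79 (SE) (adjusted p = 0.000105).

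The partner chains followed the same order of genotypes with smaller ratios. *Lamb1*, the beta chain (chr12:31950099-32014509, + strand), had 3448, 3508 and 3414 normalized counts in fWT and 11748, 11394 and 11873 in fKO, a 3.38-fold rise (log2 1.76 ± 0.051 (SE), adjusted p = 1.07e-14). *Lamc1*, the gamma chain (chr1:155066052-155179916, - strand), had 3778, 3803 and 3727 in fWT and 14495, 14144 and 14338 in fKO, a 3.8-fold rise (log2 1.93 ± 0.051 (SE), adjusted p = 2.91e-15). The groups did not overlap for either chain. In males *Lamb1* had 8978, 8018 and 8741 in mWT and 2738, 5868 and 5643 in mKO, and *Lamc1* had 11215, 10089 and 10777 in mWT and 2802, 8011 and 7415 in mKO. Every mKO library was below every mWT library, but the male differences did not pass (adjusted p = 0.056 for *Lamb1* and 0.115 for *Lamc1*). With mKO A alone left out both passed, at log2 fold changes of -0.57 and -0.47 (adjusted p = 0.00452 and 0.0135). For each chain this was the only 1 of 6 male fits without a single library that passed. Since mKO A was chosen for its distance in these same data, these values are given with reserve. The interaction passed for both, at -2.69 ± 0.29 (SE) and -2.88 ± 0.39 (SE).

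Compared per kilobase of exon, the 3 chains stood in different proportions in each genotype. In fWT the *Lama1* level was 92.1 ± 3.03 normalized counts per kb (SD, n = 3), while *Lamb1* was at 349 ± 4.79 and *Lamc1* at 456 ± 4.74. In fKO they were at 1373 ± 40.6, 1177 ± 25.1 and 1732 ± 21.3. The corresponding levels were 843 ± 49.8, 865 ± 50.4 and 1293 ± 68.6 in mWT, and 235 ± 169.7, 479 ± 176 and 735 ± 345 in mKO. *Lama5*, the alpha chain of the other widespread embryonic laminin, was at 489 ± 8.86 in fWT, above *Lama1*, and at 257 ± 16.9 in fKO, below it.

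**Figure D2:**
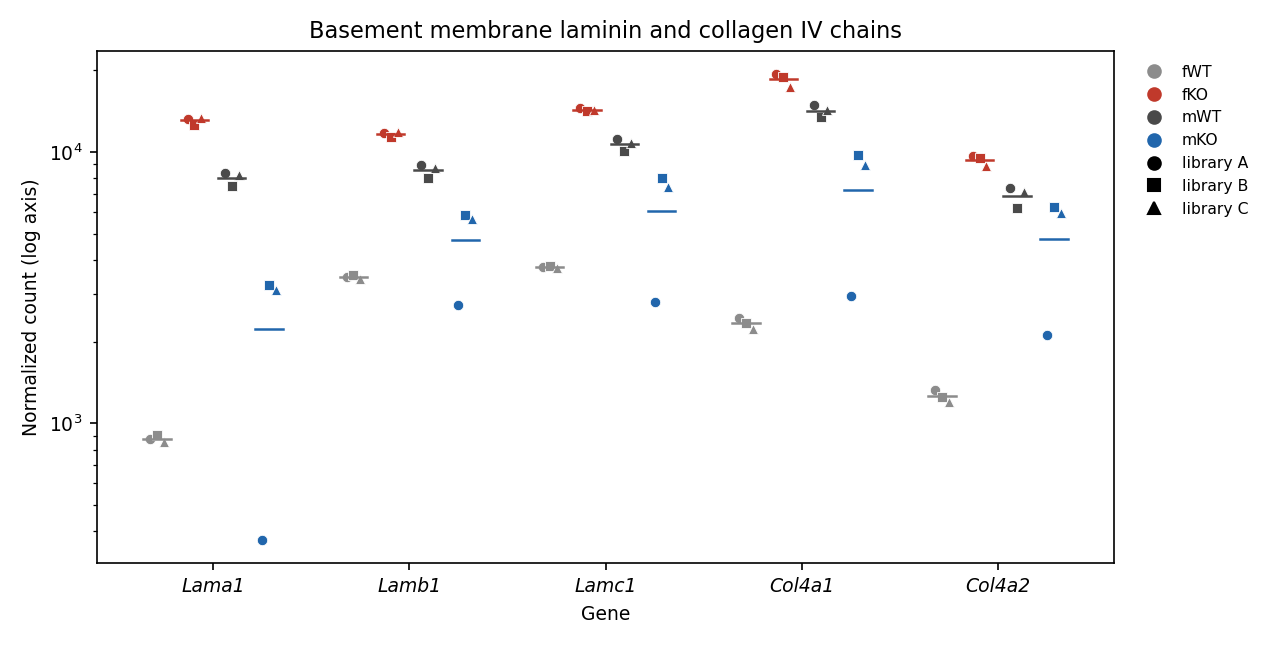
Normalized counts (log axis) of *Lama1*, *Lamb1*, *Lamc1*, *Col4a1* and *Col4a2* in each of the 12 libraries, with a bar at the mean of each genotype. For every gene the 3 fKO libraries lie above the 3 fWT libraries, the mWT libraries lie between these groups, and mKO A is the lowest male library.

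*Col4a1* and *Col4a2* encode the pair of chains that make up most collagen IV. They lie head to head on chromosome 8, *Col4a1* at chr8:11198423-11312826 on the - strand and *Col4a2* at chr8:11312805-11449287 on the + strand (mm9), and their annotated starts overlap by 22 bases. *Col4a1* had 2443, 2347 and 2226 normalized counts in fWT and 19394, 18869 and 17421 in fKO, and *Col4a2* had 1325, 1252 and 1202 in fWT and 9648, 9476 and 8852 in fKO. Both rose in fKO, 7.94-fold and 7.4-fold, with log2 fold changes of 2.99 ± 0.058 (SE) and 2.89 ± 0.056 (SE) (adjusted p = 6.16e-17 for both). In males *Col4a1* had 14942, 13432 and 14301 in mWT and 2952, 9774 and 8935 in mKO, without overlap. *Col4a2* had 7347, 6239 and 7108 in mWT and 2119, 6259 and 5941 in mKO, where mKO B reached above the lowest mWT library. Neither male difference passed (adjusted p = 0.0943 and 0.253). Without mWT B and mKO A, the male log2 fold changes were -0.65 and -0.24 (adjusted p = 0.00025 and 0.00661). The interactions were -4.15 ± 0.44 (SE) and -3.57 ± 0.41 (SE).

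The promoters of *Col4a2* and *Lamb1* are shown because *Col4a1*, *Col4a2* and *Lamb1* rose together in fKO. Both are the 250 bases before the RefSeq start, on the + strand of GRCm38.p6, and lower-case letters surround capitals that mark the GC box, searched as GGGCGG on both strands, and the CCAAT box, searched likewise by its letters. The first window does not lie between the 2 collagen genes. It lies wholly past the *Col4a1* start on the opposite strand, so its letters also belong to the beginning of *Col4a1*.
*Col4a2*, chr8:11312555-11312804: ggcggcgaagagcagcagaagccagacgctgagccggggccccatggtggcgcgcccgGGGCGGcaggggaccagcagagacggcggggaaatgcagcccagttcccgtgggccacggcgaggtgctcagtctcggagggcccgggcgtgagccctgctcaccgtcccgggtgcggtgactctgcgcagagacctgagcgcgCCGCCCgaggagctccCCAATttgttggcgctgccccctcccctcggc
*Lamb1*, chr12:31265043-31265292: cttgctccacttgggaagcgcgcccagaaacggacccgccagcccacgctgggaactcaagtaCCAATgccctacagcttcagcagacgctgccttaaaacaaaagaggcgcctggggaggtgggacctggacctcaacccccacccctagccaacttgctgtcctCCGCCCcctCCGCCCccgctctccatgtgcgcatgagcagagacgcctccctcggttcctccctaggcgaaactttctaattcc
Each window held 2 GC boxes and 1 CCAAT box. Neither held a TATA box, searched as TATAAA, nor a GATA motif, searched as AGATAA. In the RefSeq table of windows from 250 bases before to 50 after the start, 58 of the 81 genes were matched with 64 windows. On either strand, and with overlaps counted once a window, the GC box was found in 54.7% of these and in 35.7% of all 32851 windows, and the CCAAT box in 26.6% and 37.4%. The TATA box was found in 7.81% and 13.6%, and the GATA motif in 4.69% and 11.2%. A match says only that the letters are there.

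Markers of endoderm, the lineage that lays down much of the early embryonic basement membrane, rose with these chains in fKO and were divided in males. Of 16 endoderm markers, 15 were higher in fKO and none lower, and in mKO none was higher and 3 were lower. Without mWT B and mKO A, 8 were higher and 5 lower in mKO, a fit in which *Lama1*, *Col4a1* and *Col4a2* were lower. Their summed level was 647 to 696 normalized counts in the fWT libraries, 7858 to 8134 in fKO, 3577 to 6139.9 in mWT and 1075 to 7143 in mKO. No marker was at 0 in all libraries of a genotype. The endoderm regulator *Sox17* had means of 43.4, 495, 283 and 81.9 in fWT, fKO, mWT and mKO, and *Gata6* had 35.4, 619, 339.5 and 152. Other markers had a higher mean in mKO than in mWT, among them *Cubn* (84, 2999.8, 1717 and 2501), *Dab2* (266, 1263, 794 and 1040.4) and *Apoa1* (8.18, 39.1, 24.4 and 307). The 3 markers lower in mKO were *Sox17*, *Thbd* (34.2, 387, 167 and 39.5) and *Plat* (24.9, 247, 200 and 37.0). The order of libraries was not the same throughout. Libraries B and C of mKO had larger summed marker levels (6987 and 7143) than mWT A and C (3703 and 3577). *Cubn* alone gave 3477 and 3663 of these in mKO B and C, and 1178 and 1157 in mWT A and C. *Lama1* was lower in mKO B and C than in mWT A and C. The part of endoderm cells in the levels of the basement membrane genes was not tested.

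**Figure D3:**
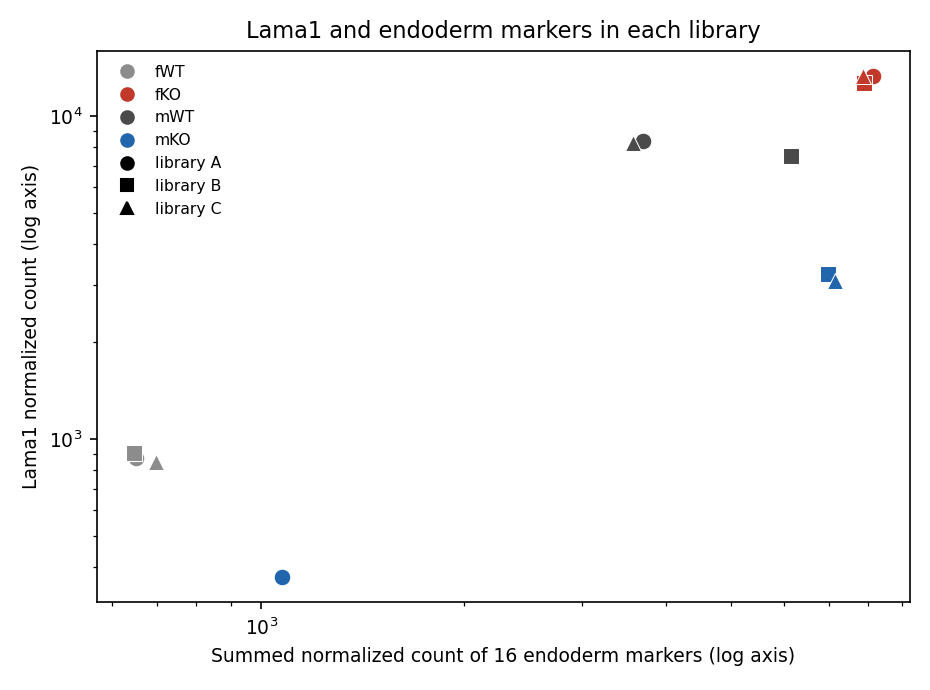
*Lama1* normalized count against the summed normalized count of 16 endoderm markers in each of the 12 libraries (both axes logarithmic). The fWT libraries and mKO A lie at the lower left, the fKO libraries at the upper right, and mKO B and C lie to the right of mWT A and C but below them.

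The remaining laminin chains did not rise as a group. *Lama5* had 5674, 5594 and 5473 normalized counts in fWT and 3157, 2835 and 2812 in fKO, and fell by 0.93 on the log2 scale (SE 0.056, adjusted p = 2.21e-10). In males it had 5364, 4416 and 5264 in mWT and 4699, 6784 and 6008 in mKO, and the groups overlapped (log2 0.21 ± 0.16 (SE), adjusted p = 0.425). *Lama3*, an epithelial alpha chain, had 101, 69.2 and 81.2 in fWT and 379, 409 and 400.2 in fKO, a 4.73-fold rise (adjusted p = 2.99e-11), and 151, 188 and 139 in mWT and 97.4, 208 and 185 in mKO, which overlapped. *Lamb2*, a beta chain of basement membranes at the synapse and kidney, had 400.4, 360.1 and 336 in fWT and 282, 264 and 259 in fKO and fell (log2 -0.44 ± 0.082 (SE), adjusted p = 0.000184), with 391, 258 and 342 in mWT and 415, 690.3 and 689.9 in mKO (adjusted p = 0.0522).

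*Lama4*, an alpha chain known from blood vessels, was low, with 46.3, 29.6 and 26.7 normalized counts in fWT, 54.1, 45.5 and 50.5 in fKO, 109.7, 42.4 and 99.2 in mWT and 21.1, 29.4 and 18.6 in mKO. It passed in females (log2 0.57 ± 0.22 (SE), adjusted p = 0.0418), where the groups overlapped by a little, but in only 1 of the 6 fits without a single library. In males it was lower in mKO (log2 -1.73 ± 0.40 (SE), adjusted p = 0.0313) in groups that did not overlap, and 2 of the 6 such fits passed. The mWT libraries with the most reads on otherwise silent genes, A and C, were also its highest. *Lamb3* had 38.2, 26.4 and 26.7 in fWT, 25.1, 13.5 and 21.2 in fKO, 16.9, 6.2 and 17.2 in mWT and 21.1, 30.4 and 36.2 in mKO. It passed in neither sex (adjusted p = 0.0856 and 0.175) but passed the interaction (1.76 ± 0.57 (SE), adjusted p = 0.0404). *Lama2* and *Lamc3* had means of at most 11.1 and 7.83 and did not pass in either sex.

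Of the other basement membrane collagens, *Col18a1*, whose C-terminal fragment is endostatin, was high in every genotype. It had 6631, 6299 and 6673 normalized counts in fWT and 5481, 5253 and 4856 in fKO, a fall of 20.5% in the mean (log2 -0.33 ± 0.057 (SE), adjusted p = 8.78e-05). In mWT it had 6213, 7022 and 5638 and in mKO 6201, 3874 and 3732, and the male groups overlapped because mKO A was as high as the controls. *Col4a5* and *Col4a6*, the X-linked head-to-head pair of collagen IV genes whose starts lie 1309 bases apart in mm9, fell in fKO while *Col4a1* and *Col4a2* rose. *Col4a5* had 67.4, 45 and 41.1 in fWT and 10.2, 10.9 and 12.1 in fKO, and 26.9, 25.8 and 33.1 in mWT and 123, 86.2 and 78.6 in mKO. It was 4.62-fold lower in fKO (adjusted p = 3.32e-06) and 3.36-fold higher in mKO (adjusted p = 0.00813), with no overlap in either sex, and it passed in 6 of 6 male fits without a single library. *Col4a6* had 15.1, 16.5 and 12.2 in fWT and 0, 1.68 and 0 in fKO (log2 -3.48 ± 0.45 (SE), adjusted p = 3.88e-06), with no read in 2 of the 3 fKO libraries. In males it had 3.99, 2.07 and 1.44 in mWT and 12.2, 2.03 and 1.03 in mKO, a few reads at most outside mKO A, and the interaction was 3.85 ± 0.91 (SE) (adjusted p = 0.00804). *Col4a3* and *Col4a4*, the third head-to-head pair, had means of at most 6.05 and 10.7, both in mWT, where their reads came from A and C only.

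In the class of fibrillar collagens, 7 of 11 fell and 2 rose in females, beside 24.7% and 25.5% of all genes. In males 5 rose and none fell, beside 4.19% and 3.63%. Without mWT B and mKO A, 7 rose and 1 fell in males, beside 17.7% and 25.4%. The median log2 fold change was -0.72 in females and 1.31 in males, beside 0.0043 and -0.17 for all genes. The summed level of the 11 genes was 3401 ± 50.9 normalized counts (SD, n = 3) in fWT, 1689 ± 125 in fKO, 1375 ± 123 in mWT and 6176 ± 317 in mKO. In mKO the libraries A, B and C had 6433, 6274 and 5821, so A lay beside the others.

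*Col1a1* and *Col1a2* encode the chains of collagen I, the main fibre of connective tissue. *Col1a1* (chr11:94797538-94814356, + strand) had 1271, 1270.3 and 1329.6 normalized counts in fWT and 279, 285 and 281 in fKO, and was 4.58-fold lower in fKO (log2 -2.19 ± 0.060 (SE), adjusted p = 4.98e-15). It had 224, 251 and 199.8 in mWT and 1899.9, 2675 and 2420.4 in mKO, and was 10.4-fold higher in mKO (log2 3.36 ± 0.15 (SE), adjusted p = 3.66e-05). The groups did not overlap in either sex, and the interaction of 5.55 ± 0.17 (SE) had an adjusted p of 3.28e-10. *Col1a2*, on another chromosome (chr6:4454814-4491543, + strand), had 755, 767 and 756 in fWT, 375, 337 and 300.1 in fKO, 262, 359 and 231 in mWT and 1725, 1654 and 1545 in mKO. It was 2.25-fold lower in fKO (adjusted p = 5.28e-10) and 5.78-fold higher in mKO (adjusted p = 0.000105). Both genes kept their direction and passed in 6 of 6 fits without a single library in each sex. Per kilobase of exon, the *Col1a1* level exceeded that of *Col1a2* in every genotype, with 197 ± 5.21 against 62.5 ± 0.559 in fWT and 355 ± 60.2 against 135 ± 7.47 in mKO.

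**Figure D4:**
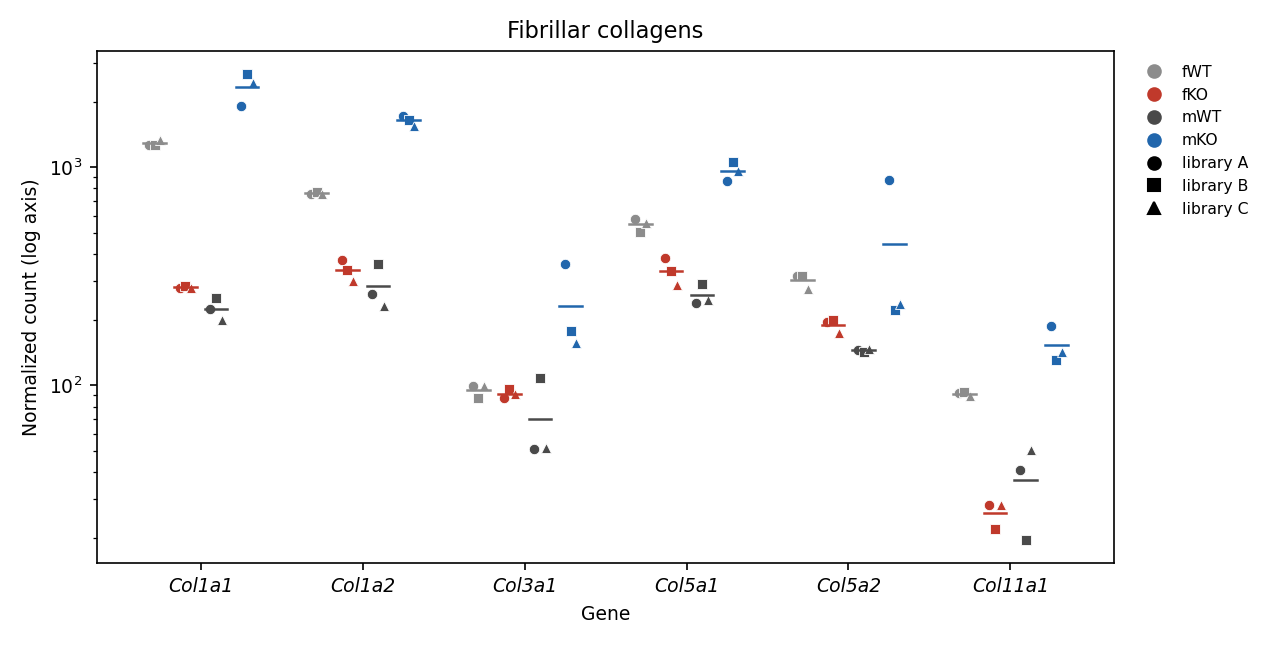
Normalized counts (log axis) of 6 fibrillar collagen genes in each of the 12 libraries, with a bar at the mean of each genotype. The mKO libraries are above the mWT libraries for all 6, and the fKO libraries are below the fWT libraries for all but *Col3a1*.

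Of the collagen V and XI chains, which set the width of collagen fibres, *Col5a1*, *Col5a2* and *Col11a1* fell in fKO. *Col5a3* rose in fKO, and *Col11a2* did not pass there (log2 0.42, adjusted p = 0.304 in limma). *Col5a1* and *Col11a1* also rose in mKO. *Col5a1* had 576, 507 and 557 normalized counts in fWT, 382, 333 and 288 in fKO, 238, 292 and 247 in mWT and 861, 1062 and 965 in mKO, with log2 fold changes of -0.72 ± 0.090 (SE) in females and 1.89 ± 0.14 (SE) in males (adjusted p = 2.5e-06 and 0.00014). *Col11a1* had 92.5, 93.3 and 88.9 in fWT, 28.2, 21.9 and 28.3 in fKO, 40.9, 19.6 and 50.3 in mWT and 187, 131 and 142 in mKO, with log2 fold changes of -1.78 ± 0.18 (SE) and 2.11 ± 0.34 (SE) (adjusted p = 2.17e-07 and 0.00813). Neither gene's groups overlapped within a sex. *Col5a2* had 316, 318 and 277 in fWT and 196, 199 and 174 in fKO and fell (log2 -0.68 ± 0.090 (SE), adjusted p = 5.21e-06). In males it had 145, 143 and 147 in mWT and 877, 222 and 237 in mKO, where mKO A was far above the rest and the difference did not pass (adjusted p = 0.103). Without mKO A the male log2 fold change was 0.66 and passed (adjusted p = 0.00903), the only 1 of 6 fits without a single library that did.

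*Col3a1*, the fibre chain of soft tissues and the neighbour of *Col5a2* on chromosome 1, had 99.6, 87.8 and 98.9 in fWT and 87.8, 96 and 90.9 in fKO, with a 95% interval of -0.33 to 0.21 for the female log2 fold change. It was higher in mKO, with 50.8, 109 and 51.7 in mWT and 359.5, 177 and 157 in mKO (log2 1.70 ± 0.37 (SE), adjusted p = 0.026). *Col2a1*, the collagen of cartilage, had 197, 179 and 217 in fWT and 82.3, 85.9 and 68.7 in fKO and fell (log2 -1.31 ± 0.12 (SE), adjusted p = 6.68e-08). Its male values were 143, 166 and 154 in mWT and 349.8, 113 and 92.1 in mKO, and mKO A alone lay above the controls. *Col27a1* went against the class, with 64.4, 48.3 and 53.4 in fWT and 285, 242 and 253 in fKO, a 4.69-fold rise (adjusted p = 1.12e-10), and 125, 119 and 131 in mWT and 82.8, 99.3 and 115 in mKO (adjusted p = 0.295).

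Fibroblast markers, which feeder cells would carry, moved in part with the fibrillar collagens. Per the methods, the ESCs were grown on gelatin for 4 passages before they became EpiLCs. Of 13 markers, none was higher and 4 were lower in fKO, and 2 were higher and none lower in mKO. With mWT B and mKO A left out, 3 were higher and 4 lower in mKO. Their summed level was 867 to 935 normalized counts in the fWT libraries, 338 to 397 in fKO, 702 to 813 in mWT and 820.2 to 1012 in mKO. The markers called in both sexes were *Postn*, with means of 54.1, 5.25, 11.6 and 96.8 in that order, and *Pdgfrb*, with 61.1, 23, 75.9 and 163. The levels of single markers differed widely. *Mmp2* had means of 342, 95.4, 256 and 229, *Fbln1* had 279.6, 115, 225 and 267, and *Thy1* had 67.1, 56.8, 69.1 and 58.1, while *Dcn*, *Lum* and *Fap* had at most 6.79, 2.39 and 3.43 in any genotype. The part of carried-over fibroblasts was not tested.

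The other collagens with values to follow were short-chain, fibre-associated and anchoring types. *Col7a1*, which anchors epithelial basement membrane to the tissue below, had 272, 265 and 253 normalized counts in fWT, 113, 121 and 109 in fKO, 167, 75.5 and 164 in mWT and 262, 365 and 317 in mKO. It fell in fKO (log2 -1.20 ± 0.094 (SE), adjusted p = 7.54e-09) and rose in mKO (log2 1.28 ± 0.29 (SE), adjusted p = 0.0304), but only 2 of 6 male fits without a single library passed. *Col8a1*, a short-chain collagen, had 79.5, 78 and 72.3 in fWT, 45.5, 45.5 and 46.5 in fKO, 41.9, 39.3 and 34.5 in mWT and 230.5, 114 and 107 in mKO, with log2 fold changes of -0.73 ± 0.16 (SE) and 1.85 ± 0.31 (SE) (adjusted p = 0.000833 and 0.00909). Its partner *Col8a2* had 21.1, 25.3 and 23.3 in fWT and 3.92, 10.1 and 6.06 in fKO and fell (adjusted p = 0.000445), with 14, 18.6 and 12.9 in mWT and 36.5, 16.2 and 16.5 in mKO.

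Among collagens that sit on fibres, *Col16a1* had 63.4, 64.8 and 70.0 in fWT, 34.5, 32.8 and 29.3 in fKO, 36.9, 37.2 and 40.2 in mWT and 73, 117 and 129 in mKO, and changed in opposite directions (adjusted p = 0.000137 and 0.0152). *Col9a2* had 70.4, 65.9 and 57.8 in fWT, 36, 37.9 and 34.4 in fKO, 54.8, 53.8 and 44.6 in mWT and 127, 95.3 and 93.1 in mKO and did likewise (adjusted p = 0.000888 and 0.03). Both fell in fKO and rose in mKO, but only 2 of 6 male fits without a single library passed for each. *Col9a3*, another chain of collagen IX, had 146, 132 and 179 in fWT, 106, 126 and 107 in fKO, 148, 171 and 122 in mWT and 159, 73 and 78.6 in mKO, and passed in females only (adjusted p = 0.0107 and 0.255), while its interaction did not pass (-0.16 ± 0.35 (SE), adjusted p = 0.766). *Col12a1* had 80.5, 93.3 and 73.4 in fWT, 55.6, 42.9 and 63.7 in fKO, 96.7, 53.8 and 101 in mWT and 330.3, 132 and 184 in mKO, and passed in females (adjusted p = 0.00708) and for the interaction (adjusted p = 0.00649). The chains of collagen VI, which forms beaded filaments, did not move together. *Col6a1* had 53.3, 46.1 and 44.5 in fWT, 40.8, 47.1 and 34.4 in fKO, 39.9, 69.3 and 27.3 in mWT and 65.7, 124 and 101 in mKO and passed for the interaction only (adjusted p = 0.0405). *Col6a3* had 49.3, 60.4 and 47.8 in fWT and 106, 107 and 111 in fKO, a 2.06-fold rise (adjusted p = 1.15e-05), and 92.7, 121 and 103 in mWT and 145, 119.6 and 135 in mKO.

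*Itgb1*, the beta chain shared by most laminin and collagen receptors, had the highest level of all integrins in every genotype. Its level per kilobase of exon was 1269 ± 44.7 normalized counts per kb (SD, n = 3) in fWT, 1009.8 ± 49 in fKO, 1035 ± 133 in mWT and 1301 ± 14 in mKO. The next level was that of *Itga3* in fWT (209.9 ± 3.14) and of *Itga6* in the other genotypes, with 255 ± 7.73 in fKO, 251 ± 8.3 in mWT and 388 ± 101 in mKO. *Itga6* and *Itga3* in mKO (304 ± 80.7) differed by less than the SD of *Itga6*, and in fWT *Itgb5* (171 ± 10.9) and *Itga6* (171 ± 6.46) differed by less than the SD of either. *Itgb1* had 5310.5, 4972 and 5258 normalized counts in fWT and 4094, 4333 and 3936 in fKO, and fell (log2 -0.33 ± 0.055 (SE), adjusted p = 6.34e-05). It had 4587, 3603 and 4487 in mWT and 5244, 5328 and 5353 in mKO (log2 0.34 ± 0.13 (SE), adjusted p = 0.137), with no overlap, and the interaction passed (0.67 ± 0.13 (SE), adjusted p = 0.00289).

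**Figure D5:**
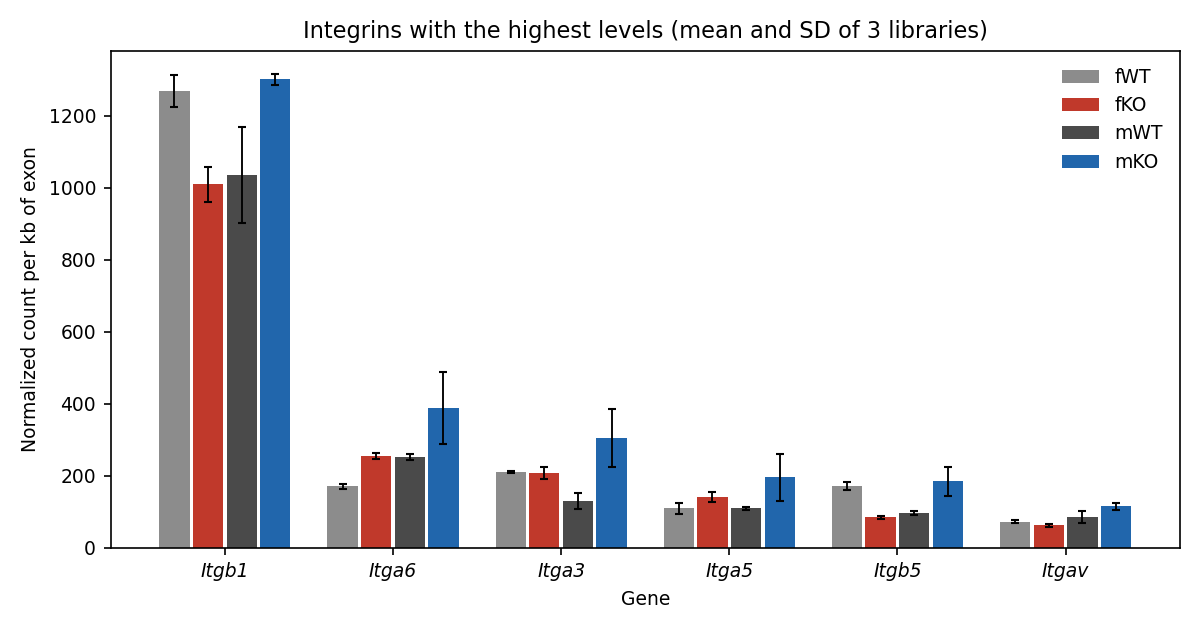
Level per kilobase of exon (normalized counts per kb, linear axis from 0) of the 6 integrin genes with the highest levels, as bars for the mean of 3 libraries of each genotype with error bars for the SD. *Itgb1* reaches 1009.8 to 1301 and the others 62.1 to 388.

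The laminin receptors differed among themselves. *Itga6*, the alpha chain of the main laminin receptor of pluripotent cells, had 1489, 1532 and 1604 normalized counts in fWT and 2233, 2371 and 2288 in fKO, a 1.49-fold rise (log2 0.58 ± 0.054 (SE), adjusted p = 7.19e-08). In males it had 2197, 2346 and 2253 in mWT and 2458, 3957 and 4098 in mKO, all mKO above all mWT, with a log2 fold change of 0.59 ± 0.18 (SE) that did not pass (adjusted p = 0.0836). *Itga6* had the same direction in both sexes, and its interaction was 0.017 ± 0.21 (SE) (adjusted p = 0.961). *Itga3*, another laminin-binding alpha chain, had 1199, 1217 and 1181 in fWT and 1289.9, 1089 and 1177 in fKO, with a 95% interval of -0.15 to 0.11 for the log2 fold change. It rose 2.35-fold in mKO, from 799, 599 and 826 to 1219.8, 2099 and 1897 (adjusted p = 0.0102), and the interaction passed (adjusted p = 0.00254). *Itgb4*, the hemidesmosome chain that pairs with *Itga6*, had 178, 175 and 152 in fWT and 64.3, 82.5 and 68.7 in fKO and fell (log2 -1.22 ± 0.13 (SE), adjusted p = 3.21e-07), against *Itga6*. Its male values of 159, 68.2 and 152 in mWT and 99, 164 and 141 in mKO overlapped.

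Of the 8 receptors of the RGD class, 1 was higher and 4 were lower in fKO, beside 25.5% and 24.7% of all genes. In mKO 2 were higher and 0 lower, beside 4.19% and 3.63%. *Itgb5*, a vitronectin receptor chain, had 537, 609 and 583 in fWT, 299, 273 and 283 in fKO, 336, 299 and 333 in mWT and 473, 738 and 649.6 in mKO. It was 2.02-fold lower in fKO and 1.92-fold higher in mKO (adjusted p = 2.13e-09 and 0.0135), without overlap in either sex. Only 2 of 6 male fits without a single library passed for *Itgb5*. *Itgb3* had 113, 90.0 and 87.8 in fWT, 65, 69.9 and 81.9 in fKO, 92.7, 64.1 and 81.9 in mWT and 113, 317 and 323 in mKO (adjusted p = 0.0278 in females and 0.0388 in males). It passed in 3 of 6 female and 1 of 6 male fits without a single library. *Itgav*, the alpha chain that pairs with both, had 754, 830.1 and 757 in fWT, 610.5, 689 and 701 in fKO, 968, 705 and 1053 in mWT and 1113, 1303 and 1301 in mKO, and passed in females (log2 -0.23 ± 0.068 (SE), adjusted p = 0.00915) and for the interaction (adjusted p = 0.0155). *Itga5*, the fibronectin receptor chain, had 427, 549 and 460.3 in fWT and 639, 545 and 661 in fKO and rose, although the groups overlapped (log2 0.36 ± 0.090 (SE), adjusted p = 0.0023). In males it had 479.6, 462 and 497 in mWT and 554, 1121 and 906 in mKO, all mKO above all mWT, and did not pass (adjusted p = 0.0623). The dishes were coated with fibronectin in all groups.

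*Itga11*, a collagen I receptor chain of fibroblasts, had 31.2, 57.1 and 53.4 in fWT, 12.5, 19.4 and 18.2 in fKO, 28.9, 11.4 and 20.1 in mWT and 97.4, 66.9 and 69.3 in mKO, lower in fKO and higher in mKO (adjusted p = 0.000312 in females and 0.015 in males). *Itga9* had 105, 107 and 91.2 in fWT and 36, 35.4 and 44.5 in fKO and fell (log2 -1.37 ± 0.16 (SE), adjusted p = 1.55e-06), with 70.8, 58.9 and 76.2 in mWT and 63.3, 76 and 77.6 in mKO. Chains known from leukocytes were low. *Itgal* rose in fKO from 2.01, 7.69 and 1.11 to 23.5, 21.9 and 22.2 (adjusted p = 8.35e-05) and had 17.9, 5.17 and 5.75 in mWT and 13, 12.2 and 17.6 in mKO. *Itgam* had 20.1, 19.8 and 10.0 in fWT and 17.2, 16.8 and 18.2 in fKO, and was lower in mKO, with 40.9, 45.5 and 35.9 in mWT and 12.2, 8.11 and 14.5 in mKO (adjusted p = 0.0231, 2 of 6 fits without a single library). Of the 5 leukocyte markers found, 2 were higher in fKO (*Ptprc* and *Lyz2*) and none passed in males. *Ptprc*, *Emr1* and *Lyz2* had means of at most 4.77, 1.62 and 20.5 normalized counts in any genotype, and *Cd68* and *Cd34* had 54.8 to 73.5 and 31.3 to 38.2. *Itgad* had no read in any female library, and 4 and 5 reads in mWT A and C alone.

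The other 38 genes had means of 0.931 to 99.9 normalized counts over the 12 libraries. In females 7 of them rose, by 0.60 to 1.55 on the log2 scale, and 2 fell, beside 25.5% and 24.7% of all genes. None passed in males. None could pass for the interaction, because every gene that did was among those given library values by rule. Those that rose were *Col5a3*, *Col6a5*, *Col13a1*, *Col15a1*, *Col23a1*, *Itga1* and *Itgb7*, and those that fell were *Col24a1* and *Itga8*, which are named here after their values were seen.

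Genes that work with these chains were counted from 3 further lists, beside which 25.5% of all genes rose and 24.7% fell in fKO, and 4.19% and 3.63% in mKO. Of 12 partners in the basement membrane and matrix, 3 rose and 7 fell in fKO, and 4 rose and 0 fell in mKO, or 25% and 58.3%, and 33.3% and 0% (median log2 fold change -0.48 in females and 0.22 in males). *Sparc*, which binds collagen IV, had means of 2262 in fWT, 8663 in fKO, 7652 in mWT and 5228 in mKO, and rose in fKO (log2 1.94, adjusted p = 4.32e-14). *Nid1*, which links laminin to collagen IV, rose in fKO (means of 648 and 1486, adjusted p = 6.09e-11). *Fn1*, fibronectin, fell in fKO and rose in mKO, with means of 5307, 3740.0, 3470.3 and 8476 in the same order (adjusted p = 5.49e-07 and 0.000512), as did the proteoglycan gene *Agrn* and the laminin receptor *Dag1*.

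Of 20 genes of collagen processing found in the tables, 12 rose and 3 fell in fKO, and 4 rose and 1 fell in mKO, or 60% and 15%, and 20% and 5% (median log2 fold change 0.42 in females and 0.072 in males). *Serpinh1*, the collagen chaperone HSP47, had means of 4300.2 in fWT and 10633 in fKO and rose (log2 1.31, adjusted p = 1.42e-12), with 3902 and 5283 in males. *Bmp1*, which trims fibrillar procollagens, rose in mKO from 181 to 693 (log2 1.91, adjusted p = 0.00193). *Lox*, the cross-linking enzyme of fibres, had means of 397, 281, 219.7 and 549 in fWT, fKO, mWT and mKO, the order of genotypes seen for *Col1a1* (adjusted p = 5.02e-05 and 0.0154). Of 20 integrin adaptors and focal adhesion genes, 6 rose and 7 fell in fKO, and 5 rose and 0 fell in mKO, or 30% and 35%, and 25% and 0% (median log2 fold change -0.062 in females and 0.25 in males). *Tln1*, the talin that activates integrins, fell in fKO (3012 to 2409, adjusted p = 6.33e-05) and rose in mKO (1974 to 3006, adjusted p = 0.0114). The male counts without mWT B and mKO A were 5 higher and 3 lower for the partners, 8 and 7 for collagen processing, and 13 and 1 for the adaptors.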

How the data were processed

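RNA-Seq libraries of EpiLCs were made from 3 ESC lines of each of 4 genotypes. Per the methods, 50-base reads were aligned to mm9 with TopHat2 (version 2.1.0), and the submitters' processing notes also name Bowtie2 (2.2.6.0), DESeq and Cuffdiff. The authors deposited 1 table per sex that holds, for each gene, the mean signal of each genotype, namely read counts divided by size factors, without coverage by length. Whether reads were counted by strand is not given in the sources used here. The tables also hold the authors' fold changes and p-values, which were not used. Because each mean is a sum of whole reads over 3 size factors, the reads of single libraries were recovered for 22860 of 22911 genes with Python 3.11.15, numpy 2.4.6 and numba 0.67.0. On simulated data this gave 100% right values. The simulated means did not reach those of the highest genes here, *Lama1*, *Lamb1*, *Lamc1* and *Col4a1* among them, so the recovery of these was not tested. Intervals and floors of such reads would cover counting error only.

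Log2(normalized count + 1) values of all genes with a read were fitted with limma 3.58.1 (R 4.3.3), within each sex for mutant over control and over 12 libraries for the interaction, with Benjamini-Hochberg adjustment over all genes and a threshold of 0.05. A fold change on this scale understates the change of low genes. On simulated data the female fit found 96% of 200 changed genes of 19153 (3.52% false) and the male fit 76% of 200 of 21525 (3.80% false). Whether the recovered libraries are separate lines is known only from the methods, so p-values measure the spread between these libraries. Library values were given for genes with a mean of at least 100, for those passing the interaction, and for the 5 that rose and the 5 that fell most in each sex among those passing with a mean of at least 10. The values of 1 gene that this rule named are not reported here, though it stays in the counts. Gene positions and exon lengths came from the mm9 annotation and promoters from RefSeq (GRCm38.p6). The genes and lists were chosen with earlier results of these data known. Alternatives were voom weights, another pseudocount, a minimum mean, another scaling and leaving out libraries.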

Additional observations from a re-analysis of the deposited data

Results flagged for a closer look

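The effect of the mutation differed between the sexes, by the interaction of sex and genotype in limma at an adjusted p under 0.05, for 37 genes. The values are the log2 fold change in males minus that in females. Among them it was negative for the laminins *Lama1* (-6.26), *Lamc1* (-2.88), *Lamb1* (-2.69), *Lama4* (-2.30) and *Lama3* (-2.27), for the collagens *Col4a1* (-4.15), *Col4a2* (-3.57), *Col27a1* (-2.56) and *Col6a3* (-0.70) and for the integrin *Itgam* (-1.88). It was positive for the collagens *Col1a1* (5.55), *Col11a1* (3.89), *Col4a6* (3.85), *Col4a5* (3.77), *Col1a2* (3.73), *Col5a1* (2.61), *Col8a1* (2.57), *Col7a1* (2.48), *Col16a1* (2.43), *Col8a2* (2.22), *Col5a2* (1.98), *Col12a1* (1.91), *Col9a2* (1.84), *Col3a1* (1.75) and *Col6a1* (1.37), for the laminins *Lamb3* (1.76), *Lamb2* (1.28) and *Lama5* (1.14) and for the integrins *Itga11* (3.39), *Itgb5* (1.93), *Itgb3* (1.93), *Itga9* (1.44), *Itgb4* (1.38), *Itga3* (1.23), *Itgav* (0.69) and *Itgb1* (0.67). Groups of 3 libraries were not tested for single libraries that lay far from the others.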

How the results depend on the processing

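The counts of genes called were 47 in females, 16 in males and 37 for the interaction. Upper-quartile scaling, a minimum mean of 10, voom weights and 0.1 as pseudocount gave 46 to 47, 14 to 17 and 36 to 37. Leaving out single libraries gave 39 to 47 in females, 5 to 38 in males and 33 to 46 for the interaction. Leaving out mWT B and mKO A together gave 56 in males and 56 for the interaction, among them all 16 and all 37. Upper-quartile scaling shifted log2 fold changes by a median of -0.02 in females and -0.03 in males. Of the named genes whose log2 fold change took the other sign, none passed in the fit reported, and *Lama3* in males passed without mWT B and mKO A (0.43, adjusted p = 0.0241). In males without both libraries *Col4a6* was at -0.49 and *Itgb4* at -0.032, and *Col2a1* was at 0.061 with voom weights. Without single libraries, the values that crossed 0 ranged over -0.19 to 0.28 for *Itgam* and -0.082 to 0.040 for *Itga3* in females. In males they ranged over -0.59 to 0.36 for *Col2a1*, -0.43 to 0.92 for *Col4a6*, -0.028 to 0.17 for *Itga9*, -0.24 to 0.37 for *Itgb4* and -0.23 to 0.31 for *Lama3*, and in the interaction over -0.11 to 0.25 for *Itga6* and -0.51 to 0.043 for *Col9a3*. In females, calls were lost without fWT A, fKO A or fKO B for *Itgb3*, fWT B or fKO A for *Itgav*, fWT B, fWT C, fKO A, fKO B or fKO C for *Lama4*, fWT C, fKO A or fKO C for *Col9a3*. In males, calls were lost without mWT A, mWT C, mKO B or mKO C for *Col16a1*, *Col7a1*, *Col9a2*, *Itgam*, *Itgb5* and *Lama4*, mWT A or mWT C for *Col3a1*, mWT A, mWT B, mWT C, mKO B or mKO C for *Itgb3*, mWT C for *Col8a1* and *Itga3*, mWT C or mKO C for *Itga11*. In the interaction, calls were lost without any of at least 5 of the 12 libraries for *Col6a1*, *Col6a3*, *Itgb4* and *Lamb3*. The cause was not tested. No paired analysis was possible because the recovered libraries carry no replicate numbers. Groups of 3 against 3 allow no exact permutation p below 0.1, and nothing here shows whether the small female spread is that of separate lines or technical.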

Other observations

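Marker lists of cell states that no comparison above rests on moved as follows. Of 9 EpiLC markers, 5 were higher and 3 lower in fKO, and 0 higher and 4 lower in mKO, and their summed level was 14478 to 14837 normalized counts in fWT, 21730.5 to 22287 in fKO, 15988 to 24811 in mWT and 11357 to 14631 in mKO, with mWT B the highest male library. Of 10 markers of the naive ESC state, 8 were higher and 1 lower in fKO, and 5 higher and 0 lower in mKO, with summed levels of 4143 to 4300.5, 5393 to 5607, 4435 to 5704 and 7959 to 10445 in the same order. Of 8 markers of primitive streak and mesoderm, 3 were higher and 1 lower in fKO, and 1 higher and 0 lower in mKO. *Hand1*, a mesoderm and trophoblast factor, had means of 53.7, 104, 22.3 and 640.2 in fWT, fKO, mWT and mKO. Of 6 trophoblast markers, 1 was higher and 2 were lower in fKO.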
